A study of Mus musculus with 19 samples.

Results

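Blood leukocyte RNA of B6 mice at 4 w after administration of CAWS was compared with that of B6 mice at 0 w. CAWS is a water-soluble mannoprotein and β-glucan fraction of the yeast Candida albicans, injected intraperitoneally on consecutive days, and 0 w is the time right after the fifth injection. The comparison holds 4 of the 18 RNA samples of the series, 2 at each time, chosen by strain and week alone. They were hybridized to 5 of the 19 arrays, because the RNA of B6 0 w replicate 2 was measured on 2 arrays, which were averaged. All mice were male. B6 served as the control strain for DBA/2 mice, in which the vasculitis after CAWS is lethal. The paper reports inflammatory cells in the aortic wall of the control strain as well, with a later onset and few deaths. That onset was no earlier than the later of the times compared here, so the B6 4 w mice cannot be taken as free of vasculitis. The 0 w animals had received every CAWS injection too, so that no sample of the comparison came from an untreated mouse. The sources used here give an age range for the mice as a whole and no age for a single group. They also give the 2 samples of a group as separate biological replicates. From 33.9% to 46.3% of the spots were well above background on the 3 arrays of B6 0 w, and 41.4% and 42.3% on the 2 of B6 4 w.

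Leukocytes are the nucleated cells of blood, and an RNA sample of them mixes neutrophils, monocytes, T, B and NK cells in the proportions that the filter retained, together with platelets and remnants of red cell RNA. Neutrophils carry the alarmins S100A8 and S100A9 and leave the marrow in larger numbers during inflammation, whereas NK cells and cytotoxic T cells kill target cells with perforin and granzymes and secrete interferon gamma. Albumin, the major urinary proteins and most apolipoproteins and clotting factors are made by hepatocytes, the epithelial cells of the liver. Their genes are under transcription factors such as HNF1 and HNF4. Not all members of these families are products of hepatocytes alone: macrophages also make Apoe, and platelets hold the clotting factors F5 and F13a1.

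Both B6 0 w samples went against their label of leukocytes in 1 respect: they held abundant hepatocyte messages, which were far lower in the B6 4 w samples. The signal of each probe is given here scaled, so that 100 stands for the 75th percentile of its array, taken over the probes that every array called well above background. Over the 41 tested genes of a list of hepatocyte plasma proteins, the scaled signals summed to 9780 and 9680 in the B6 0 w samples and to 272 and 278 in the B6 4 w samples. The sums were 6600 and 6550 at B6 8 w, 398 at B6 2 w, 220 at B6 9 w, and between 225 and 359 in the DBA/2 samples at 0 w and 4 w. The markers of blood cells were present at both times. Lyz2, the lysozyme of myeloid cells, had scaled signals of 13600 and 12600 at 0 w and of 14600 and 13900 at 4 w.

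Liver-expressed probes were therefore separated from the others, with samples outside the comparison. A probe was called liver-tracking where the lower of the 2 B6 8 w samples, which also carried hepatocyte messages, exceeded the higher of the B6 2 w and 9 w samples by at least 2 log2 units. That class holds 207 of the 22939 tested probes (0.902%), from 184 genes, of which 55 are in the 2 lists of hepatocyte genes. The coagulation factor F12 lay just inside the threshold with a gap of 2.0, and the complement component C3 just outside with 1.99. Any gene high at B6 8 w could enter the class. Camp and Ltf, granule proteins of neutrophils, were in it, and their 3 probes were the probes of the class that rose from 0 w to 4 w.

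Promoters are shown for 3 hepatocyte genes among the largest falls and for 2 myeloid genes among the rises, to set them side by side. Each is the 250 bases before the transcription start, from RefSeq on GRCm38.p6, written 5′ to 3′ on the strand of the gene. The capitals mark GTTAAT, the core of the site of HNF1, searched on both strands like the other motifs named here, none of which is part of another.
Alb, chr5:90460620-90460869, plus strand: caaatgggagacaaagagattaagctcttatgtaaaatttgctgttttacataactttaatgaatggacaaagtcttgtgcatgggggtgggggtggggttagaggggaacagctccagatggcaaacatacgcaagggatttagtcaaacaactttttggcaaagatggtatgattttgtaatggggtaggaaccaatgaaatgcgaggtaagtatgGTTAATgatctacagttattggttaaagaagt
Fabp1, chr6:71199629-71199878, plus strand: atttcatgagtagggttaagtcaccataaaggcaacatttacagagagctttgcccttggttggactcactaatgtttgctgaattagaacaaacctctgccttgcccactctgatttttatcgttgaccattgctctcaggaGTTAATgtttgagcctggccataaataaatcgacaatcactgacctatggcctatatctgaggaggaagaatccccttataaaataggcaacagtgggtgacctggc
Serpina1d, chr12:103773634-103773883, minus strand: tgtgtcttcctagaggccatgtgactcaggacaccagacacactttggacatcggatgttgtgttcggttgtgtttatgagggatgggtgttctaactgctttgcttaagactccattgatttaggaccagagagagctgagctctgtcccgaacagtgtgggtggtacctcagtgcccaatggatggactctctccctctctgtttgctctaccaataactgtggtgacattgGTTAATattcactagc
Il1b, chr2:129371140-129371389, minus strand: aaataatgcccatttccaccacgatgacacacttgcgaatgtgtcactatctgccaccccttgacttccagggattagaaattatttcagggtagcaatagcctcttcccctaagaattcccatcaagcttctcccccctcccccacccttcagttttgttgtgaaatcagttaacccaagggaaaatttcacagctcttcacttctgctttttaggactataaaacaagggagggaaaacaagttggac
S100a9, chr3:90695722-90695971, minus strand: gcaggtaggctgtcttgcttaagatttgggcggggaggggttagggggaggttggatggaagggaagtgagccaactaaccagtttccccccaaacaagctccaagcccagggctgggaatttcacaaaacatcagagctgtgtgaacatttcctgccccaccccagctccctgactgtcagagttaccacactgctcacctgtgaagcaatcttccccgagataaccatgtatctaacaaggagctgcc

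The GTTAAT letters lay 32 bases before the start of Alb, 107 before that of Fabp1 and 16 before that of Serpina1d, and were not in the windows of Il1b and S100a9. Among promoters of genes in the 2 hepatocyte lists, 20.5% of 73 held them (15 promoters), so that the 3 shown are not typical of the lists in this respect. The share was 23.1% of 143 promoters of genes that fell in the liver-tracking class, 3.81% of 1812 promoters of genes that fell outside it, 4.66% of 1031 promoters of genes that rose outside it, and 6.43% of all 32851 promoters. A site of HNF4, CAAAGTCCA, was in 2.74% of the promoters of the hepatocyte lists, which is 2 of the 73, and in 0.384% of all. The site GAGGAAGT of PU.1, a factor of myeloid and B cells, was in 1.84% of the promoters of genes that rose outside the class, in 3.04% of those that fell outside it and in 2.44% of all. These are matches of letters in a window and not sites of binding.

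Of the 22939 tested probes, 1382 rose from 0 w to 4 w (6.02%) and 2217 fell (9.66%) in limma with Benjamini-Hochberg adjusted p below 0.05. Each count of rises or falls in a list below is to be read against these shares. The 2 groups of 2 samples did not overlap for 57.2% of the probes. The median change over all tested probes was -0.03 on the log2 scale. The balance of the directions rested on the scaling: falls made up 61.6% of the calls here, 50.8% after quantile normalization and 40.2% with the 75th percentile taken over all probes. Replicates 1 and 2 were scanned on different days. With the replicate number as a block 1923 probes rose and 3045 fell, and 73.5% of all tested probes moved the same way within both days. The replicates of B6 0 w and of B6 4 w differed by no more than 2 arrays of 1 RNA did. The median absolute difference was 0.0909 log2 units between the B6 0 w samples, or 0.0964 with the first array of replicate 2. It was 0.0968 between the B6 4 w samples and 0.0985 between the 2 arrays of B6 0 w replicate 2. The other groups of 2 samples differed by more, from 0.102 (B6 8 w) to 0.151 (DBA/2 9 w). With any 1 of the 4 samples left out, 730 to 814 probes rose and 975 to 1282 fell, the fewest falls without B6 0 w replicate 1. The p values rest on 1 spread per probe, taken within groups over all 18 samples and not over these 4 alone. That spread may be technical. With the 4 samples fitted alone, 57 probes rose and 352 fell.

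The largest falls were those of hepatocyte genes. In the liver-tracking class 194 of 207 probes fell and 3 rose, with a median fitted change of -4.48, and 173 of the probes were not well above background on either 4 w array. With such probes at their bound, as defined beside Alb, the median was -3.00. Then 60 probes fell by at least 16-fold, of which 58 were in the class. Outside the class, 2023 of 22732 probes fell (8.9%) and 1379 rose (6.07%), with a median change of -0.03.

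Albumin, the main protein of plasma, had Alb signals of 1490 and 1460 at 0 w and of 0.977 and 0.939 at 4 w. The groups lay far apart, and Alb was not well above background on either 4 w array, so that it was at least 402-fold lower (fitted log2 change -10.59, SE 0.43, adjusted p = 6.3e-07). The same kind of bound, the mean of the bright group over the lowest signal that counts as well above background, is used for every "at least" here.

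Fabp1, which carries fatty acids in the hepatocyte, gave 1530 and 1480 at 0 w against 0.859 and 0.863 at 4 w, at least 409-fold lower. The major urinary protein Mup1 gave 5150 and 5390 against 3.25 and 3.76, at least 1410-fold lower. Both genes were thus high in the 2 samples of 0 w and dark in the 2 of 4 w. Rbp4, the carrier of retinol in plasma, was at least 125-fold lower, Ces1c, a carboxylesterase secreted into plasma, at least 90.1-fold, and Gsta3, a glutathione transferase, at least 80.5-fold. Serpina1d, an α1-antitrypsin, remained well above background on both 4 w arrays, with signals of 2690 and 2650 at 0 w and of 8.34 and 6.48 at 4 w (log2 change -8.50, SE 0.13, adjusted p = 2.77e-09). Mup4 stayed above background likewise, at 8.40 and 8.25 after 3340 and 3290. The Mup and Serpina1 families hold near-identical copies, and a probe of one may also bind the others.

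By list, 37 of 41 hepatocyte plasma protein genes fell and 0 rose, with a median change of -4.81 as fitted and -3.64 with dark genes at their bound (limma, adjusted p below 0.05). The groups did not overlap for 40 of the 41, against 57.2% of all tested probes. With 9 of 18 samples required well above background, 16 of these genes were tested and 13 fell, with a median of -3.39. Ahsg, the plasma protein fetuin A, was the brightest of the list over all samples and kept a signal at 4 w, with 828 and 801 at 0 w and 48.6 and 50.4 at 4 w. Of 37 genes for hepatocyte enzymes and transporters, 26 fell and 0 rose, with a median of -3.80, or -2.42 with bounds (9 of 15 fell with the filter at 9 samples). Hsd11b1, an enzyme that activates glucocorticoids, was the brightest of these and did not pass, at 139 and 137 against 85.4 and 87.7 (adjusted p = 0.156), and its gap between B6 8 w and the 2 w and 9 w samples was -0.20.

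**Figure D1:**
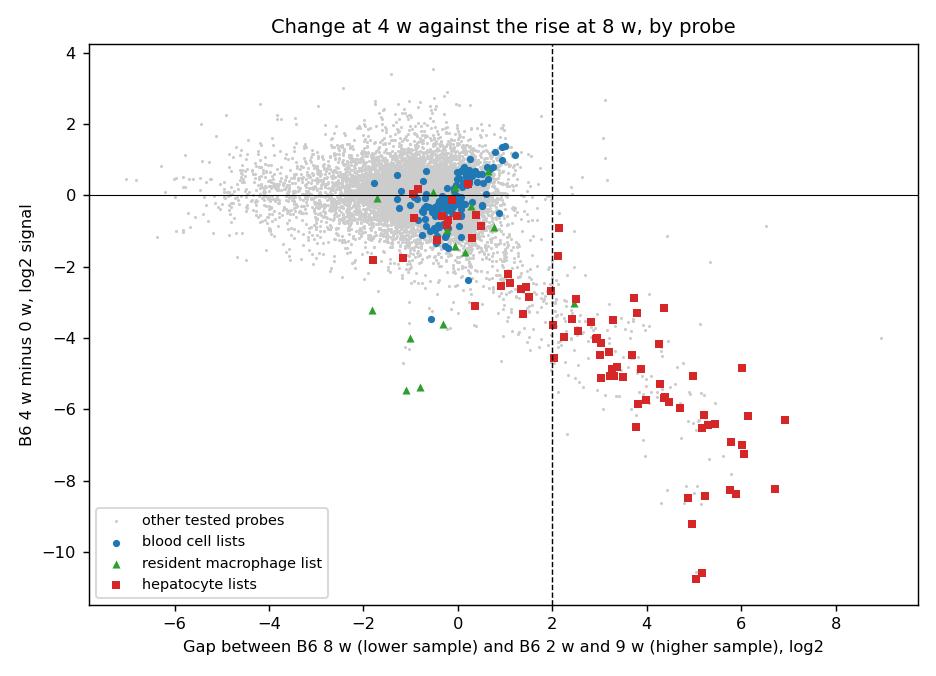
Each point is a tested probe, with the gap between B6 8 w and the B6 2 w and 9 w samples on the x axis and the change from 0 w to 4 w in B6 on the y axis, both in log2 units. Probes with a gap of at least 2 lie almost all below 0, 194 of 207 past the threshold, while the other probes scatter around a median of -0.03.

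Hepatocyte messages did not fall steadily over the weeks. Alb stood at 19.4 at B6 2 w, at 772 and 692 at B6 8 w and at 1.04 at B6 9 w. Of the 207 liver-tracking probes, 204 were higher at 8 w than at 4 w, a direction that the choice of the class fixes in part, so that it is given as a description. The 4 w samples are the controls of that comparison as well.

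Genes of plasma made by the liver in inflammation followed the hepatocyte lists in part. Of 23 acute phase genes 9 fell and 3 rose, with a median of -0.59, or -0.14 with bounds. The largest fall was that of Serpina3m, a serine protease inhibitor, from 530 and 536 to 18.6 and 15.1. Hamp, which encodes the iron hormone hepcidin, fell from 22.1 and 23.8 to background and was at least 6.24-fold lower. The 3 that rose, Lcn2, Il1rn and Cd14, are also genes of myeloid cells. Hp, the haptoglobin gene, stood at 421 and 432 at 0 w and at 376 and 393 at 4 w and did not pass (adjusted p = 0.243).

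Of 22 complement and clotting genes 14 fell and 1 rose, with a median of -2.73, or -1.37 with bounds. C3, the central component of complement, had signals of 596 and 594 at 0 w and of 104 and 107 at 4 w (log2 change -2.49, SE 0.07, adjusted p = 4.57e-08). Both 4 w samples lay far under both 0 w samples and near the 103 and 104 of DBA/2 0 w. Mbl2, a mannose-binding lectin that recognizes yeast, was at least 21.1-fold lower, after 78.0 and 76.8 at 0 w. F5, which platelets also hold, was the gene that rose, from 140 and 139 to 250 and 251.

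Macrophage genes fell together with the hepatocyte genes but followed another course over the weeks. Of 17 tested genes of resident macrophages of liver and spleen, 10 fell and 1 rose, with a median of -1.41, or -0.96 with bounds, and only 2 of the 17 were in the liver-tracking class. Retnla, a secreted protein of alternatively activated macrophages, had signals of 40.7 and 41.4 at B6 0 w and of 0.960 and 0.905 at 4 w. It was thus present in both early samples and not well above background in either later one, at least 11.2-fold lower (log2 change -5.46, SE 0.11, adjusted p = 6.72e-09). At B6 2 w it stood at 72.9, at 8 w at 34.2 and 34.5, and at 9 w at 13.8.

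C1qa and C1qc encode subunits of the first complement component, which macrophages make. C1qc gave 44.9 and 46.8 at 0 w and 1.36 and 0.898 at 4 w, at least 12.5-fold lower, and C1qa gave 18 and 15.7 against 1.06 and 1.06, at least 4.58-fold lower. The probe of the remaining subunit, C1qb, did not move with them, with 89.8 and 115 at 0 w and 103 and 114 at 4 w (adjusted p = 0.955), and its DBA/2 signals ranged from 97.7 to 210. Cd5l, an inhibitor of apoptosis secreted by macrophages, went from 49.7 and 50.7 to 2.33 and 7.31. Marco, a scavenger receptor, went from 23.3 and 25.6 to 6.63 and 9.72, and Adgre1, the F4/80 antigen, from 80.2 and 78.2 to 39.6 and 42.1. In each of these 3 the samples of the 2 times did not overlap, as for 57.2% of all tested probes. The exception in direction was Slc40a1, the iron exporter ferroportin, which rose from 20.2 and 19.7 to 34.1 and 30.1 (log2 change 0.68, adjusted p = 0.0116). That call was lost without B6 0 w replicate 1 or 2 or without B6 4 w replicate 1 (adjusted p from 0.0590 to 0.0765).

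Clec4f, a lectin of Kupffer cells, the macrophages of the liver, fell from 6.49 and 8.73 to background, at least 2.05-fold lower. Of the markers of liver endothelium and stellate cells, 1 of 13 fell and 1 rose, against 9.66% and 6.02% of all tested probes. Their median was -0.06 and was 0.16 after quantile normalization. The gene that rose was Ecm1, an extracellular matrix protein, from 1470 and 1450 to 1810 and 1800, a call lost without any 1 of the 4 samples (adjusted p from 0.103 to 0.117). The one that fell was Dcn, the matrix proteoglycan decorin, from 7.18 and 6.69 to 0.998 and 2.00, which did not pass without replicate 1 of B6 0 w (adjusted p = 0.0538) or of B6 4 w (0.0594). In a mixed sample, fewer cells of a type and less RNA per cell cannot be told apart, and whether tissue RNA had a part in the macrophage genes was not tested.

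**Figure D2:**
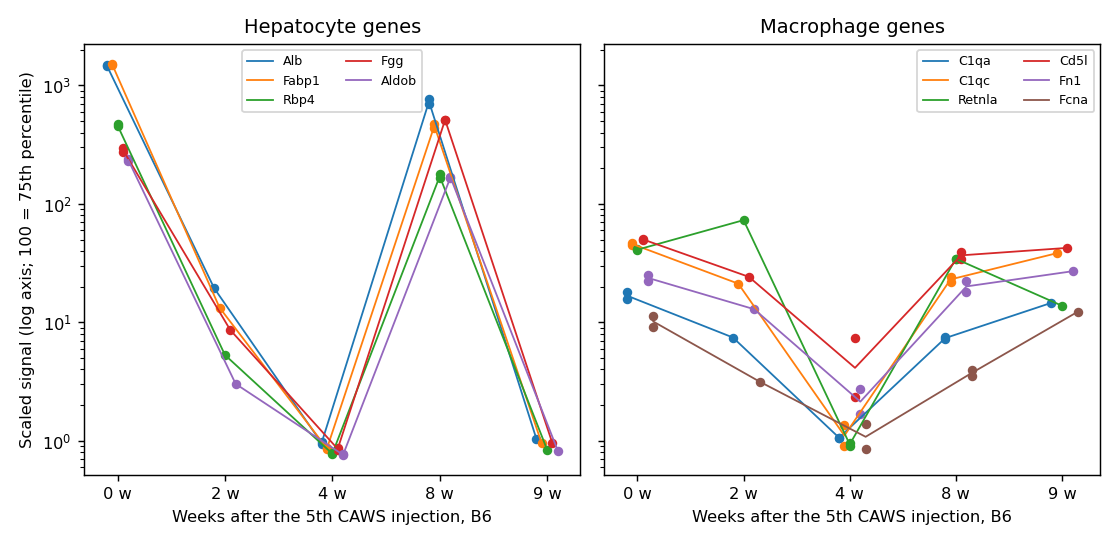
Scaled signals (log axis, 100 is the 75th percentile of an array) of hepatocyte genes on the left and macrophage genes on the right over the weeks after CAWS in B6, with a point for each sample and lines through the group means. Hepatocyte genes were high at 0 w and 8 w and near the floor at 4 w and 9 w, whereas Retnla stood at 72.9 at 2 w and 13.8 at 9 w and was near the floor at 4 w.

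Among the blood monocyte markers, 7 of 21 fell and 0 rose, with a median of -0.19, and 4 or 5 fell without any 1 of the 4 samples. Fn1, fibronectin, which tissue macrophages also express, went from 25.3 and 22.2 to 2.74 and 1.67 and was at least 6.44-fold lower. Csf1r, the receptor of the growth factor of monocytes, fell less, from 52.1 and 43.6 to 33.5 and 31.5. Treml4 and Cx3cr1, which patrolling monocytes express, fell by 0.57 and 0.92 on the log2 scale. Lyz2 did not pass (adjusted p = 0.550).

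Most neutrophil genes that passed the test rose. Of 21 tested genes of mature neutrophils, 12 rose and 1 fell, with a median of 0.46, against the 6.02% of all tested probes that rose. The median was of the same direction within both replicate pairs. Their scaled signals summed to 8040 and 7960 at 0 w and to 17700 and 17000 at 4 w, most of it from S100a9.

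S100a8, which encodes a chain of calprotectin, a metal-binding alarmin, had signals of 380 and 406 at 0 w and of 1020 and 1040 at 4 w. Its partner S100a9 had 5060 and 5030 at 0 w and 13500 and 12500 at 4 w. Both genes were higher in both 4 w samples than in either 0 w sample, by 2.62-fold (log2 change 1.39, SE 0.07, adjusted p = 3.29e-06) and by 2.57-fold (1.36, SE 0.11, adjusted p = 4.93e-05).

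Receptors of neutrophils rose by less. Cxcr2, which steers them toward CXC chemokines, went from 50.4 and 46.1 to 108 and 115 (log2 change 1.21, adjusted p = 0.000104). Il1r2, the decoy receptor of interleukin 1, went from 13.9 and 11.2 to 27.5 and 27.0. Fpr1 and Fpr2, receptors of formylated bacterial peptides, rose by 0.75 and 0.99, and Csf3r, the receptor of G-CSF, by 0.80. The matrix protease Mmp9 rose by 0.46, and the gene that fell was Selplg, the ligand of P-selectin, which other leukocytes carry too (log2 change -0.26, adjusted p = 0.0401). Without any 1 of the 4 samples, 10 or 11 of these genes rose and 0 fell, Selplg having adjusted p values from 0.103 to 0.196.

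Of 11 tested genes for granule proteins, which neutrophil precursors transcribe, 5 rose and 0 fell, with a median of 0.70, or 0.38 with bounds. All 5 were dim. Camp, the antimicrobial peptide cathelicidin, stood at 1.16 and 1.34 at 0 w, below the well-above-background call on all 3 arrays, and at 7.08 and 9.00 at 4 w, at least 2.16-fold higher. Lcn2, the siderophore-binding lipocalin, went from 0.735 and 1.65 to 4.84 and 5.53, at least 1.4-fold higher. Mmp8, neutrophil collagenase, rose from 14.5 and 13.6 to 34.7 and 28.9.

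Immediate early genes, which are transcribed within minutes of a stimulus, rose in 10 of 21 cases and fell in 0, with a median of 0.36. Fos, a subunit of the AP-1 factor, showed the largest change: its signals were 4.41 and 3.94 at 0 w and 42.8 and 44.9 at 4 w. Both samples of 4 w lay far above those of 0 w (10.5-fold, log2 change 3.40, SE 0.09, adjusted p = 4.08e-08). Junb, another subunit, went from 483 and 477 to 1410 and 1470, and Dusp1, a phosphatase that shuts off MAP kinases, from 58.7 and 61.0 to 200 and 192. Zfp36, which destabilizes cytokine mRNAs, rose by 1.10. Klf2, the brightest of the list, did not pass, at 31300 and 37100 against 24900 and 27000.

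Cytokine genes of inflammation rose in 6 of 19 cases and fell in 0, with a median of 0.28, or 0.08 with bounds. Il1b, encoding interleukin 1β, had 96.7 and 104 at 0 w and 351 and 381 at 4 w. The groups stood well apart, 3.64-fold (log2 change 1.86, SE 0.08, adjusted p = 1.15e-06). Il1rn, its natural antagonist, was not well above background at 0 w and was at least 1.85-fold higher at 4 w. The chemokine Ccl3 went from 25.2 and 23.5 to 62.2 and 58.6, and Ccl4, its neighbour in function, from 31.1 and 37.6 to 47.5 and 55.2. Il6 also passed, but was below the background call at both times.

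Receptors that recognize fungal walls are listed apart because CAWS is a fungal product. Of 14 tested genes of these receptors and their signalling, 7 rose and 0 fell, with a median of 0.34. Clec7a, the β-glucan receptor dectin-1, gave 82.7 and 84.2 at 0 w and 149 and 152 at 4 w (log2 change 0.85, SE 0.08, adjusted p = 0.000113). Clec4e, the receptor Mincle, gave 14.0 and 13.4 against 30.4 and 32.5. Clec4d, which pairs with it and is counted among the neutrophil genes too, gave 120 and 128 against 212 and 220. In all 3 both samples of 4 w were the higher ones. Tlr2 and Cd14 rose by 0.36 and 1.14.

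**Figure D3:**
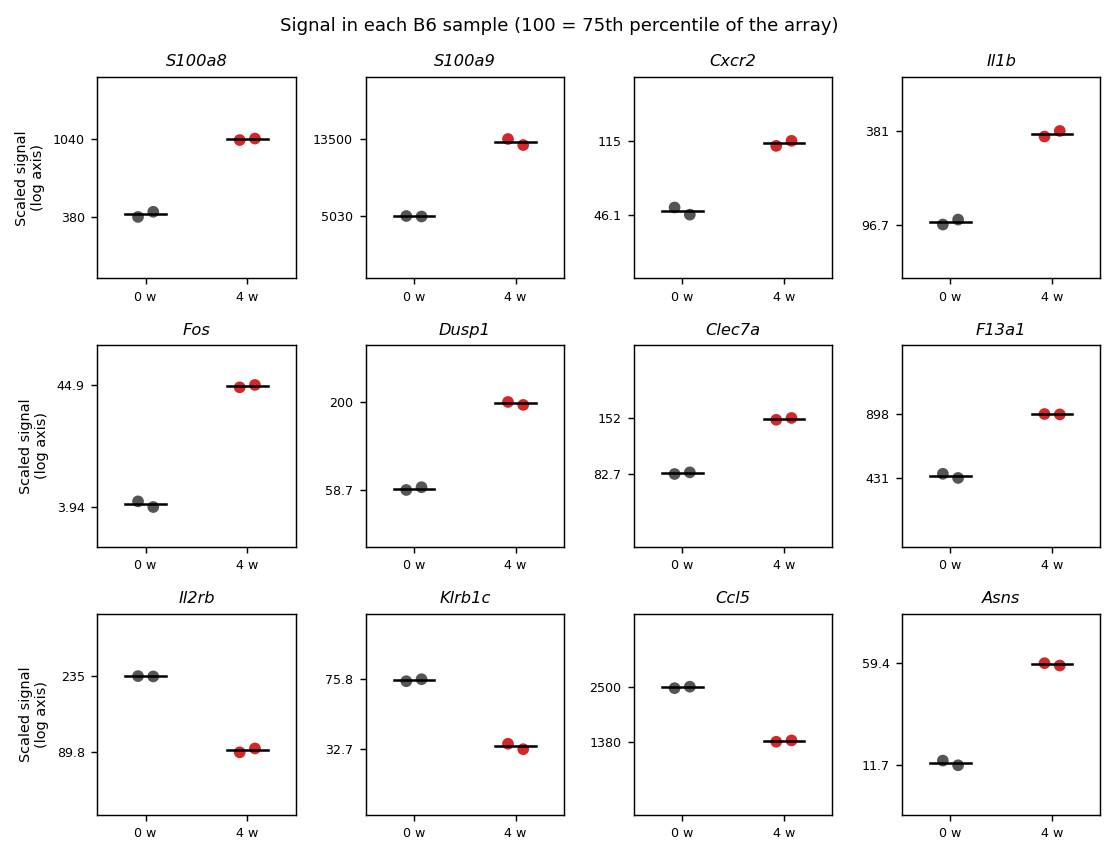
Scaled signals (log axis) of 12 genes in each B6 sample, 2 at 0 w and 2 at 4 w, with a bar at the mean of each group; B6 0 w replicate 2 is the mean of 2 arrays. The samples of a group lie close together. The groups do not overlap for any of the 12, nor for 57.2% of all tested probes. Signals go from 4.41 and 3.94 to 42.8 and 44.9 for Fos and from 235 and 234 down to 89.8 and 94.3 for Il2rb.

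Platelet genes rose almost as a whole, by small steps. Of 17 tested genes 16 rose and 0 fell, with a median of 0.58. The groups did not overlap for all 17, against 57.2% of all tested probes. F13a1, the A chain of clotting factor XIII, rose most, from 452 and 431 to 898 and 894 (2.03-fold, log2 change 1.02, SE 0.09, adjusted p = 7.53e-05). The glycoprotein genes of the receptor of von Willebrand factor, Gp1ba, Gp1bb, Gp9 and Gp5, rose by 0.80, 0.72, 0.51 and 0.34. Itgb3, the β3 integrin, went from 3730 and 3770 to 6170 and 6170, and Ppbp, a platelet chemokine, from 11100 and 10500 to 14700 and 13900. After quantile normalization 10 of the 17 rose, and 11 to 13 did without any 1 of the 4 samples, Ppbp not among them (adjusted p from 0.0764 to 0.132). With the 4 samples of the comparison fitted alone 1 rose, and without a filter on dim probes 9 did.

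Of 23 erythroid genes 13 rose and 0 fell, with a median of 0.43. The brightest, Hba-a1, did not pass, at 274000 and 261000 at 0 w against 266000 and 240000 at 4 w. The scaled signals of the list summed to 432000 and 406000 at 0 w and to 427000 and 397000 at 4 w. Tfrc, the transferrin receptor of growing red cell precursors, went from 7.15 and 6.38 to 14.4 and 14.3 (log2 change 1.09, SE 0.10, adjusted p = 0.000155). The groups were apart, as they were for Epb42, a protein of the red cell membrane, at 82.0 and 83.8 against 161 and 166. Slc4a1, the anion exchanger band 3, rose by 0.60 and Car2, a carbonic anhydrase, by 0.81. With the 4 samples of the comparison fitted alone 1 of the 23 rose, and without a filter on dim probes 7 did.

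Genes of NK and cytotoxic cells were lower at 4 w. Of 20 tested genes 16 fell and 0 rose, with a median of -0.92, against 9.66% of all tested probes. None of the 20 was in the liver-tracking class. The summed signals went from 3890 and 3920 to 2140 and 2160, and 13 to 15 of the 20 fell without any 1 of the samples. With the 4 samples fitted alone 5 fell. The median change was -0.90 within replicate pair 1 and -0.88 within pair 2.

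Il2rb, the β chain of the receptors of interleukins 2 and 15, had signals of 235 and 234 at 0 w and of 89.8 and 94.3 at 4 w (log2 change -1.35, SE 0.08, adjusted p = 9.46e-06). Klrb1c, the NK1.1 antigen, gave 74.0 and 75.8 against 34.9 and 32.7. Both genes were lower in both 4 w samples. Ncr1, an activating receptor found on NK cells, went from 15.8 and 15.3 to 7.33 and 9.26, and Klrk1, the receptor NKG2D, from 22.4 and 21.2 to 10.6 and 9.00.

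The killing proteins fell likewise. Prf1, perforin, went from 48.2 and 45.7 to 25 and 18.7, Gzmb, granzyme B, from 68.3 and 67.9 to 37.5 and 36.0, and Gzma, granzyme A, from 200 and 212 to 108 and 119. Secreted products did so too: the chemokine Ccl5 went from 2460 and 2500 to 1380 and 1400, and Ifng, encoding interferon gamma, from 23.2 and 22.3 to 13.6 and 12.7. Xcl1, a chemokine for cross-presenting dendritic cells, was at least 2.16-fold lower. Tbx21, the factor T-bet that governs this program, fell from 133 and 135 to 60.3 and 64.8 (adjusted p = 0.017).

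T cell genes moved less. Of 25, 8 fell and 0 rose, with a median of -0.28. Zap70, a kinase of T cell receptor signalling that NK cells also use, fell most, from 61.3 and 55.4 to 31.8 and 27.3 (log2 change -0.98, SE 0.15, adjusted p = 0.00227). Cd3d and Cd3g, chains of the receptor complex, fell by 0.37 and 0.35. With the 75th percentile over all probes 3 of the 25 fell, and without any 1 of the 4 samples 2 to 5 did, Cd3d passing without B6 0 w replicate 1 and in no other case (adjusted p otherwise from 0.0512 to 0.0731).

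Of 22 B cell genes 11 fell and 0 rose, with a median of -0.34. Pax5, the factor that fixes the B lineage, gave 33.6 and 30 at 0 w and 14.5 and 13.9 at 4 w (log2 change -1.17, adjusted p = 0.0151). Ms4a1, the CD20 antigen, gave 603 and 656 against 491 and 454, and Cd79b, of the B cell receptor, 1250 and 1210 against 1000 and 949. For Pax5 and for both surface antigens, the 2 times did not overlap, as for 57.2% of all tested probes. With the 75th percentile over all probes 4 of the 22 fell, and without any 1 of the 4 samples 3 or 4 did. With the 4 samples fitted alone, or without a filter on dim probes, 0 fell. Without any 1 of the 4 samples the log2 change was -1.25 to -1.08 for Pax5 and -0.38 to -0.30 for Cd79b, and neither passed. Cd79a, which pairs with Cd79b, stood at 24.4 and 23.4 against 34.6 and 36.9 and did not pass (adjusted p = 0.394).

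Of 10 plasma cell genes 2 fell and 0 rose, with a median of -0.72, or -0.18 with bounds. Jchain, which joins IgM and IgA units, went from 41.4 and 39.0 to 20 and 20.7. Of 10 MHC class II genes, with which B cells, dendritic cells and macrophages present antigen, 5 fell and 0 rose, with a median of -0.38, and 1 to 3 fell without any 1 sample. H2-Eb1 went from 248 and 247 to 183 and 175. Of 12 dendritic cell genes 4 fell and 0 rose, with a median of -0.20, and 2 or 3 fell without any 1 sample. Among those 4 were Clec10a, a lectin that macrophages also express, from 21.1 and 22.7 to 11.9 and 14.0, and the integrin Itgax, with a log2 change of -0.64.

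Of 14 genes of basophils, mast cells and eosinophils, 4 fell and 2 rose, with a median of -0.26, or 0.0 with bounds. Hdc, which makes histamine and which neutrophils can express as well, rose from 59.6 and 58.5 to 126 and 125 (log2 change 1.09, adjusted p = 0.000235). Il4 and the mast cell protease Cpa3 fell, the former from 8.21 and 8.61 to 4.73 and 5.75, and Ear1, a ribonuclease of eosinophils, from 31.6 and 27.2 to 16.7 and 14.9. The fourth, Il5ra, was not well above background at either time.

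Of 18 targets of interferon gamma, 9 fell and 0 rose, with a median of -0.36, and 3 to 5 fell with any 1 of the 4 samples left out. Iigp1, a GTPase of defence against intracellular microbes, fell most, from 33.2 and 34.3 to 9.94 and 9.75 (3.43-fold, log2 change -1.78, SE 0.14, adjusted p = 5.03e-05). Tap1, the peptide transporter of antigen presentation, went from 26.6 and 26.2 to 15.1 and 15.3, and Psmb8, Psmb9 and Psmb10, of the immunoproteasome, fell by 0.36, 0.41 and 0.50. Igtp, the brightest of the list, did not pass, at 724 and 664 against 884 and 817. Of 25 type I interferon-stimulated genes 4 rose and 2 fell, against 6.02% and 9.66% of all tested probes, with a median of 0.08. The brightest, Rsad2, the antiviral enzyme viperin, rose from 6820 and 6560 to 11500 and 11100, while Bst2, tetherin, fell from 90.5 and 94.2 to 69.3 and 69.9, a call that was lost without any 1 of the samples (adjusted p between 0.0760 and 0.108).

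Of 51 genes of cytosolic ribosomal proteins 4 fell and 0 rose, against 9.66% and 6.02% of all tested probes. The median was -0.10, which was 0.0 with the 75th percentile over all probes. Of 15 heat shock genes 1 fell, again against 9.66% of all tested probes, and the median was -0.15. It was Hspa5, the chaperone of the endoplasmic reticulum, which went from 314 and 292 to 240 and 238. That call was lost without any 1 of the samples (adjusted p from 0.0924 to 0.218). Of 11 clock genes 3 fell, with a median of -0.30: Dbp went from 84.9 and 82.9 to 51.0 and 47.0, Tef fell by 0.85 and Bhlhe40 by 0.77. Without any 1 sample 1 or 2 fell, Tef in no case (adjusted p from 0.0734 to 0.221). The 3 tested genes of the sex list did not pass.

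Of 31 cell cycle genes 7 fell and 3 rose, against 9.66% and 6.02% of all tested probes, with a median of -0.31, or -0.13 with bounds. The replication genes Mcm3, Mcm5, Mcm6, Mcm7, Pcna and Cdt1 fell by between 0.32 and 0.82, as did the mitotic gene Cdc20, by 0.86. The other mitotic genes that passed rose, Ccna2, cyclin A2, from 129 and 128 to 206 and 204, Nusap1 by 0.50 and Ube2c by 0.41. Without any 1 of the 4 samples 2 to 4 fell and 1 or 2 rose, Ube2c not among them (adjusted p from 0.0930 to 0.126).

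**Figure D4:**
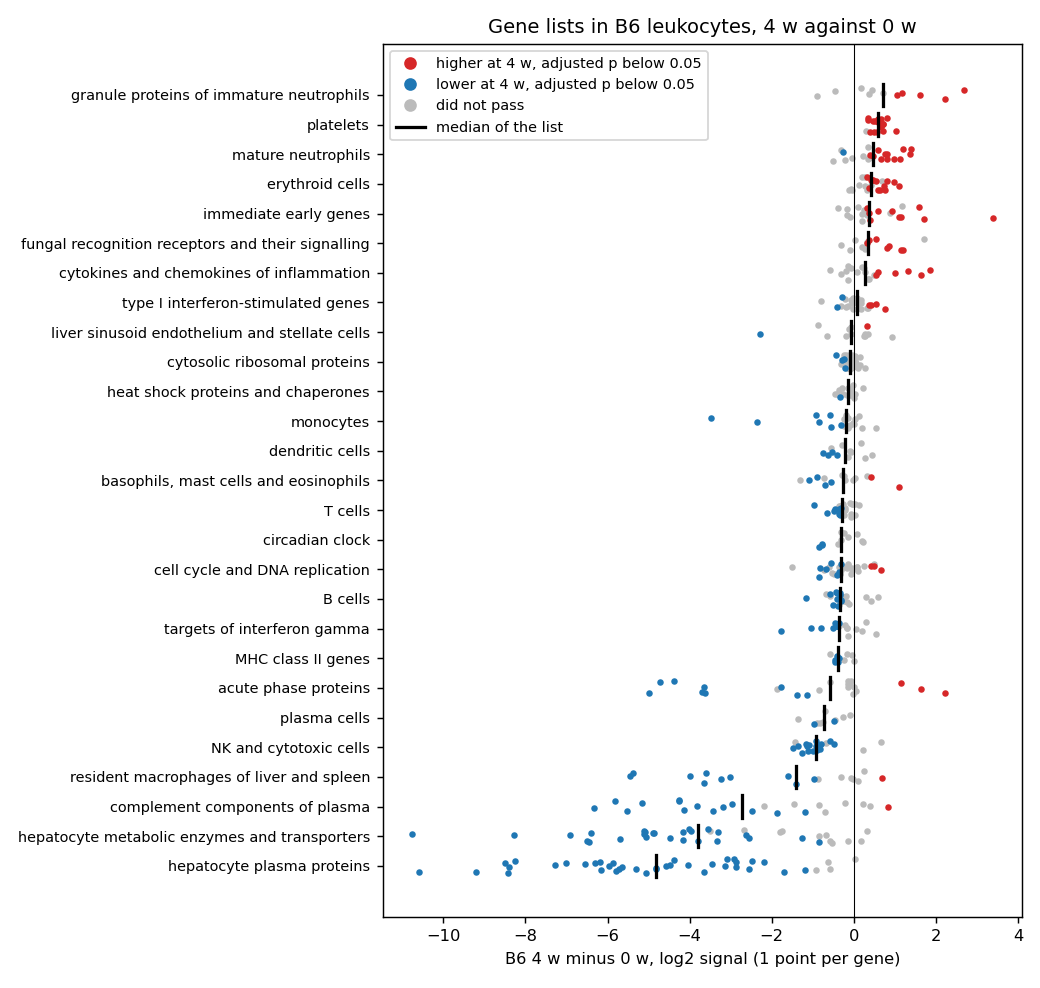
The log2 change from 0 w to 4 w in B6 of every tested gene of each list, with a point per gene, colored by whether it passed the threshold, and a bar at the median of the list. The hepatocyte lists reach down to -10.77, and among the lists of blood cells the NK and cytotoxic genes lie mostly below 0 (median -0.92) and the platelet genes all above it (median 0.58).

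Outside the liver-tracking class and the lists of liver products, the 8 genes with the largest falls among those well above background on all 5 arrays were Apoe, Mgst1, Ephx2, Gstm1, Gcgr, Nat8f1, Ndrg2 and Gstm3. Apoe, a lipoprotein component made by hepatocytes and macrophages, went from 1140 and 1160 to 133 and 141 (log2 change -3.07, SE 0.07, adjusted p = 2.95e-08). Gstm1 and Gstm3, glutathione transferases, went from 341 and 366 to 49.2 and 56.7 and from 139 and 141 to 30.4 and 32.2. Gcgr, the glucagon receptor, which hepatocytes carry, went from 32.2 and 28.2 to 6.74 and 5.16. These genes were also higher at B6 8 w than at 2 w and 9 w, with gaps between 0.61 and 1.81, under the threshold of 2. The neutrophil gene S100a8 had a gap of 1.0 as well, so that such a gap does not mark liver-expressed genes alone. Whether liver RNA had a part in these falls was not tested. Of the 183 other probes with a gap of at least 1, 87 fell (47.5%) and 16 rose (8.74%). With these put aside as well, 1936 of 22549 probes fell (8.59%) and 1363 rose (6.04%).

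The 8 largest rises under the same conditions were those of Asns, Mthfd2, Il1b, Atcay, Dusp1, Junb, Senp2 and B230217C12Rik. Asns, asparagine synthetase, had 12.6 and 11.7 at 0 w and 59.4 and 57.2 at 4 w (4.80-fold, log2 change 2.26, SE 0.09, adjusted p = 5.66e-07). Mthfd2, a mitochondrial enzyme of folate metabolism, had 32.0 and 32.0 against 140 and 147 (2.16, SE 0.10, adjusted p = 9.66e-07). Both stood well above the 0 w samples in both replicates, and neither is a gene of 1 blood cell type. Atcay, a gene of neurons by its usual place of expression, gave 43.9 and 41.6 against 145 and 145, the SUMO protease Senp2 gave 75 and 67.4 against 218 and 203, and B230217C12Rik gave 19.5 and 16.6 against 55.4 and 46.6.

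Because Asns and Mthfd2 are targets of ATF4, the factor of the response to a lack of amino acids, a list of 18 genes of that response was drawn up after their rise had been seen, and it is no independent evidence. Of the 17 tested, 8 rose and 1 fell, with a median of 0.42. Atf5 rose from 70.8 and 69.9 to 151 and 145, and Slc7a5 and Slc3a2, which form an amino acid transporter, by 1.03 and 0.57. Atf4 itself rose by 0.46, from 52.1 and 54.9 to 73.7 and 73.9. Nupr1 was the member that fell, from 24.5 and 22.8 to 15.8 and 14.2.

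The change in B6 was set against that in DBA/2 mice over the same weeks, with the difference itself tested. The DBA/2 comparison has its own 0 w samples and shares none with B6. There, 7.58% of the tested probes rose and 7.24% fell. Of 22939 probes, 1693 differed toward DBA/2 (7.38%), that is with a change more positive there, and 1026 toward B6 (4.47%). Of the 2217 probes that fell in B6, 962 differed toward DBA/2, and of the 1382 that rose, 493 differed toward B6.

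Of the 207 liver-tracking probes, 178 differed toward DBA/2, where 2 fell and 21 rose and where the hepatocyte lists were near their 4 w level at 0 w already. The hepatocyte plasma protein genes had a median change of -0.04 in DBA/2 against -4.81 in B6, or -3.64 in B6 with bounds. In DBA/2, 22 of the 41 were dark at 0 w and 23 at 4 w, so that much of its median compares background with background. Macrophage genes went opposite ways. Retnla rose in DBA/2 from 20.7 and 17.9 to 94.7 and 96.1, and the changes differed (adjusted p = 6.85e-09), by an amount not measured exactly because the B6 fall is a bound. The median of the macrophage list was 1.49 in DBA/2 against -1.41 in B6, or -0.96 in B6 with bounds.

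NK and cytotoxic genes differed toward DBA/2 in 16 of 20 cases, with medians of 0.53 in DBA/2 and -0.92 in B6. Il2rb rose by 1.27 there and fell by 1.35 in B6, a difference of 2.62 (adjusted p = 1.98e-06), and Ifng rose by 1.79 and fell by 0.79, a difference of 2.59 (adjusted p = 1.68e-05). Of 25 type I interferon-stimulated genes, 18 differed toward DBA/2, where the median was 1.12. Monocyte genes differed toward DBA/2 in 17 of 21 cases, with a median of 0.99 there.

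The neutrophil rise was present in both strains. Of the mature neutrophil genes 15 of 21 differed toward DBA/2, where the median was 1.39 against 0.46 in B6. S100a8 rose by 1.76 in DBA/2 and by 1.39 in B6, and the difference of 0.37 did not pass (adjusted p = 0.0505), nor did that of S100a9, 0.34 (adjusted p = 0.200). Fos rose by 3.35 and 3.40, a difference of -0.05 (adjusted p = 0.891), which does not show that the strains responded alike. Il1b rose further in DBA/2, by 2.52 against 1.86 (difference 0.66, adjusted p = 0.00682), and so did Clec7a, by 1.60 against 0.85.

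Platelet genes had medians of 0.47 in DBA/2 and 0.58 in B6. Erythroid genes had -0.14 against 0.43, and 13 of 23 differed toward B6. Tfrc fell by 1.24 in DBA/2 and rose by 1.09 in B6 (difference -2.33, adjusted p = 1.24e-05). The amino acid response genes had a median of 0.12 in DBA/2, and 8 of 17 differed toward B6, Asns by -2.10 (adjusted p = 1.03e-05) and Mthfd2 by -1.76 (adjusted p = 4.15e-05). Atcay, Senp2 and B230217C12Rik were low in DBA/2 throughout, Atcay at 5.21 and 4.63 at 0 w and at 1.81 and 2.66 at 4 w.

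**Figure D5:**
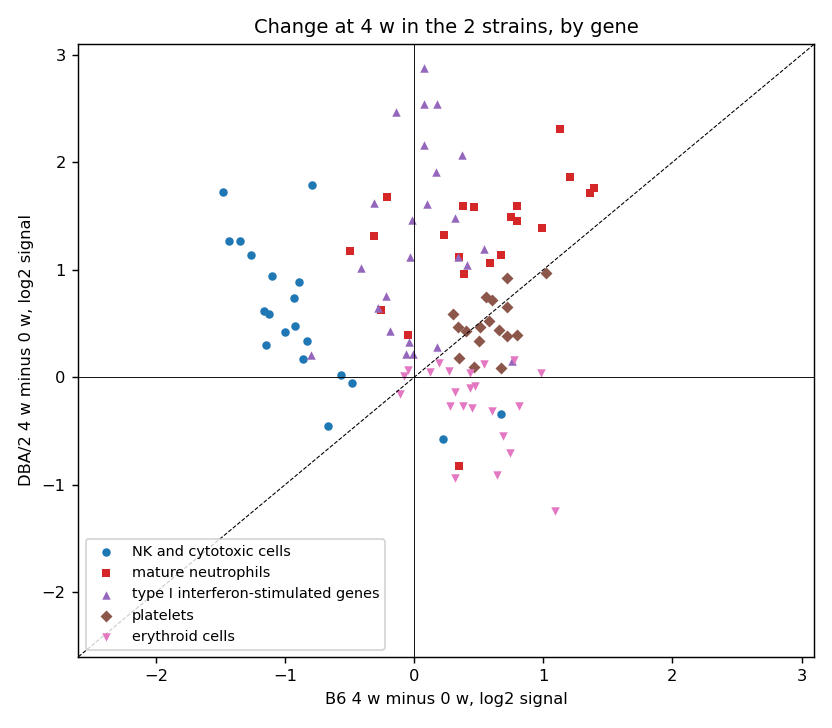
Change from 0 w to 4 w of each tested gene of 5 lists in B6 on the x axis and in DBA/2 on the y axis, both in log2 units; the dashed line marks equal change. NK and cytotoxic genes lie mostly left of 0 in B6 and mostly above 0 in DBA/2 (medians -0.92 and 0.53), neutrophil genes mostly above the line (medians 0.46 and 1.39), and erythroid genes mostly below it (medians 0.43 and -0.14).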

How the data were processed

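Leukocyte RNA was labelled with Cy3 and hybridized by the authors to single-color Agilent whole mouse genome arrays, read with Agilent Feature Extraction 9.5.3.1 per the submitters' processing notes. The deposited processed signal is an intensity, background-subtracted and detrended within the array, with no scaling between arrays. Here log2 signals of non-control spots, without outlier flags, were averaged per probe, and from each array its 75th percentile was subtracted, computed on the 11536 probes that all 19 arrays called well above background. B6 0 w replicate 2 is the mean of 2 arrays. Of 41174 probes, 22939 were well above background in at least 2 of 18 samples and entered limma's lmFit and eBayes (version 3.58.1, R 4.3.3) with 10 group means, 8 residual and 1.37 prior degrees of freedom. Calls were made at a Benjamini-Hochberg adjusted p below 0.05. Quoted gene signals are 100 times the antilog of the scaled log2 value.

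The members and gene lists were chosen with earlier results of these data known, and the amino acid list after Asns and Mthfd2 had been seen. A stated rule selected the largest called rise and fall and the brightest gene of each list. It also selected the 8 largest falls of the liver-tracking class and the 8 largest rises and falls outside it. Not every gene so selected is described above. The other genes named are examples of list members, picked after their values were seen. A list gene is given by its brightest probe. Probes were named by accession (24375), symbol (6301) or synonym (2426), and 8072 kept the name in the files. Replicate 1 and 2 of both groups were scanned on different days, and the number of arrays limits the precision. The alternatives of scaling, background correction, filter, block and left-out samples are given with the closing observations. The procedure was tested on simulated data. Tables and plots were made with Python 3.11.15, pandas 2.3.3 and matplotlib 3.10.9. The values of 1 list gene are not reported here.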

Additional observations from a re-analysis of the deposited data

Results flagged for a closer look

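The genes given here are those selected by the report's rule whose change from 0 w to 4 w differed between the strains. The test was limma's test of the difference (Benjamini-Hochberg adjusted p below 0.05). Each value is the log2 change of DBA/2 with that of B6 subtracted, and no explanation was weighed.

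Alb, Fabp1, Mup1, Rbp4, Ces1c, Gsta3, Mbl2, Retnla, Fn1, Dcn and Xcl1 were not well above background on either B6 4 w array, Camp on any B6 0 w array and Atcay on either DBA/2 4 w array. Their fitted values contain a background reading, are no measured sizes and have no order. Among hepatocyte genes the fitted difference was 14.51 for Fabp1, 11.40 for Gsta3, 11.15 for Mup1, 10.21 for Rbp4, 10.16 for Alb, 9.70 for Serpina1d, 8.78 for Mup4 and 8.21 for Ces1c. Further genes of liver products differed by 4.97 (Serpina3m), 4.74 (Mbl2), 4.28 (C3), 3.77 (Ahsg) and 1.83 (Hp). The large falls outside the liver-tracking class differed by 4.39 (Mgst1), 4.03 (Apoe), 2.99 (Gstm1), 2.97 (Ephx2), 2.66 (Ndrg2), 2.24 (Gcgr), 2.21 (Gstm3) and 2.16 (Nat8f1).

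Macrophage and matrix genes differed by 7.77 (Retnla), 6.11 (Fn1), 3.91 (Dcn) and 0.81 (Slc40a1). Among genes of cytotoxic and T cells the differences were 3.20 for Xcl1, 1.18 for Ccl5 and 1.12 for Zap70. Among targets of interferon they were 2.50 for Iigp1 and 1.43 for Bst2, and Rsad2 went the other way with -0.61. Clec10a differed by 2.54, H2-Eb1 by 0.58, Creld2 by 0.71, Hspa5 by 0.94 and Hspa8 by 1.09. Myeloid genes differed by 1.22 (Hdc), 0.97 (Clec4e), 0.91 (Ccl6), 0.89 (Selplg), 0.79 (Lyz2) and 0.66 (Il1b), all toward DBA/2, whereas Camp differed by -1.41.

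Toward B6 also differed Atcay by -2.93, Tfrc by -2.33, Senp2 by -2.22, Asns by -2.10, B230217C12Rik by -2.04, Mthfd2 by -1.76 and Ccna2 by -0.56. The samples of a group numbered 2 at most, so that no single sample was tested for standing apart.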

How the results depend on the processing

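The balance of rises and falls turned with the 75th percentile over all probes, where 1843 probes rose and 1240 fell. Falls made up 50.8% of the calls after quantile normalization and 50.1% with the median of each array. None of the genes selected by the rule that passed changed sign, and 23 of the 68 that passed did so under each alternative. Of probes that fell there were 2217, against 56 with normexp, 1425 after quantile normalization, 1240 with the 75th percentile over all probes, 1167 in the deposited value table, 822 without a filter, 989 with B6 samples alone, 352 with the 4 samples alone and 1046 at 2-fold without a test. Of probes that rose (1382) there were 29 with normexp, 486 without a filter, 2333 with the slide as a block, 636 with B6 samples alone, 57 with the 4 samples alone and 645 at 2-fold. The liver-tracking falls (194) numbered 32 with normexp, 40 with the filter at 9 samples and 123 with a gap of 3. Falls outside the class (2023) numbered 24 with normexp, 1231 after quantile normalization, 1047 with the 75th percentile over all probes, 976 in the value table, 637 without a filter, 3102 with the slide block, 798 with B6 alone, 179 with the 4 samples alone and 849 at 2-fold. Rises outside it (1379) numbered 29, 485, 2331, 635, 56 and 642 with normexp, no filter, the slide block, B6 alone, the 4 samples alone and 2-fold. On 4 arrays the lowest background-subtracted signal was -336 or lower, and the first percentile after normexp was 70.2 or higher. On the other arrays that percentile was 54.3 or lower. Normexp with the lowest signals raised, chosen after seeing this, gave 1163 rises and 1583 falls.

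The counts from 4 w to 8 w (4050 higher, 2645 lower) also changed their balance: 405 and 838 with normexp, 2146 and 14572 with raised normexp, 14219 and 167 in the value table, 2370 and 1757 without a filter. Probes more positive in DBA/2 (1693) numbered 97 with normexp and 884 without a filter, and those more positive in B6 (1026) numbered 13, 355, 1673 with the replicate block and 2191 with the slide block. The cause of these shifts was not tested, other than the fewer samples or probes that a setting takes.

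Leaving out 1 replicate in turn gave 975 to 2077 falls, 730 to 1293 rises, 175 to 195 liver-tracking falls, 800 to 1884 other falls and 728 to 1291 other rises. It gave 2657 to 3949 probes higher and 1875 to 2568 lower at 8 w, and strain differences of 1149 to 1536 toward DBA/2 and 554 to 927 toward B6. Replicate numbers, which go with the day of scanning, gave a correlation of 0.286 between the deviations of B6 0 w and 4 w, 0.455 for 0 w and 8 w and 0.319 for 4 w and 8 w. With 2 pairs and nothing in the labels that ties the numbers, they were not taken as pairs of mice. With the number as a replicate block 1923 probes rose and 3045 fell, and 0 of the calls of genes selected by the rule were lost. Few arrays, and for 173 liver-tracking probes a 4 w signal at background, limit the values. By list, the 4 samples alone left 0 T cell, 0 B cell and 0 MHC class II falls, 3 neutrophil and 3 immediate early rises, 24 and 30 falls of the hepatocyte lists and 6 of the macrophage list. Normexp left 2 NK falls and 1 platelet rise, and raised normexp 15 and 16.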
